A study of Danio rerio x Danio aesculapii and Danio rerio x Danio albolineatus and Danio rerio x Danio kyathit with 48 samples.

Results

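The gene mdkb encodes a midkine, and its transcripts were followed on both parental alleles in the skin of hybrid fish. It was chosen by its measured allele ratio, which favoured the paternal copy in iridophores, the reflective pigment cells of fish skin. It is 1 gene of the 19629 in the deposited tables, and it had a value in each of the 48 libraries. The allele ratio in iridophores is therefore a description here and carries no test. The summed level of both alleles and the ratios in the other kinds of library were tested. A gene shows a large ratio only where enough of its RNA is measured, so the level in iridophores is not wholly separate from that choice. Nor are the ratios in the other kinds, where the same variants assign reads to an allele and iridophore RNA may be present.

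Midkines are small secreted growth factors that bind heparin and heparan sulphate chains. Together with pleiotrophin, encoded by ptn, they form a family known in mammals to act through receptor tyrosine kinases of the ALK and LTK class, the phosphatase PTPRZ1, LRP1, integrins and the syndecans. Zebrafish carry a pair of midkine genes, mdka and mdkb, which are best known from the developing nervous system.

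All hybrids had a zebrafish mother (D. rerio), and their fathers came from D. nigrofasciatus, D. albolineatus, D. kyathit or D. aesculapii. Membrane reporters marked the pigment cells: tyrp1b:mem-mCherry the black melanophores, aox5:mem-EGFP the yellow xanthophores and pnp4a:mem-mCherry the iridophores. Skin of adult hybrids was dissociated and sorted by fluorescence into libraries enriched for a cell type, and whole, unenriched skin was the control. Each of the 16 groups (4 hybrids by 4 kinds of library) had 3 libraries, numbered 3, 4 and 5. The tyrp1b and pnp4a reporters carry the same fluorescent protein. Which reporters each fish carried, its age and sex, and whether a library came from a single fish are not stated in the labels. Hybrids are named below by their fathers.

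The deposited values are reads assigned to an allele, scaled between libraries by the authors and rounded. An estimate of the molecules behind them, from the scatter of allele ratios between replicates, ran from 47029.5 to 871533 per library, with a median of 161001 for iridophores, 85144 for melanophores, 81012 for xanthophores and 417942 for whole skin. The summed value of 12 iridophore markers lay between 136398 and 686200 in the iridophore-enriched libraries and reached at most 84038 in a melanophore-enriched, 69648 in a xanthophore-enriched and 63274 in an unenriched library. All 12 markers were above 0 in each kind of library. Sums of 10 melanophore markers ran from 14634 to 220966 in melanophore-enriched libraries. They reached 17433 in an iridophore-enriched, 15738 in a xanthophore-enriched and 14712 in an unenriched library. Those of 10 xanthophore markers ran from 11514 to 103963 in xanthophore-enriched libraries. They reached 38734 in a melanophore-enriched, 13428 in an unenriched and 8984 in an iridophore-enriched library. For both of these lists the ranges of the kinds thus overlapped. The lowest xanthophore sum was that of aesculapii 3, where 8 keratinocyte markers summed to 297631. Sums of 10 macrophage and leukocyte markers had medians of 71641 in melanophore-enriched, 36154 in xanthophore-enriched, 34004 in unenriched and 11456 in iridophore-enriched libraries. Cell type names below stand for enriched libraries, not for pure cells. The unenriched libraries kyathit 5 and nigrofasciatus 3 stood apart, with iridophore marker sums of 63274 and 28589 against a median of 4413 for that kind. The level differences of mdkb from whole skin, and its ratios there, are also given without them.

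In iridophore-enriched libraries nearly all mdkb was paternal. The nigrofasciatus hybrids had 5956, 8455 and 5182 on the paternal allele and 10, 55 and 7 on the D. rerio allele in replicates 3, 4 and 5. In albolineatus hybrids the paternal values were 2773, 2485 and 4003, and those of the D. rerio allele 44, 62 and 157. These 6 libraries held the highest mdkb values of all 48.

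The aesculapii hybrids had lower paternal values of 1548, 494 and 576, and D. rerio values of 30, 38 and 168. Paternal values of 842, 507 and 448 in the kyathit hybrids stood beside 39, 13 and 14 for the D. rerio allele. In each hybrid the lowest paternal value in iridophores was above the highest D. rerio value. This describes the values by which mdkb was chosen, and how many other genes show it was not counted.

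Outside iridophores paternal values were mostly lower, from 4 to 774, and overlapped those of aesculapii and kyathit iridophores. D. rerio values outside iridophores ran from 1 to 114. Melanophore-enriched paternal values were 162, 276 and 60 in aesculapii, 360, 506 and 135 in albolineatus, 157, 21 and 58 in kyathit and 70, 465 and 774 in nigrofasciatus hybrids. The D. rerio values there were 76, 82 and 5, then 114, 101 and 6, then 27, 15 and 13, and last 8, 101 and 10, in the same order of hybrids. Replicates of a group differed widely, as in the paternal values of the nigrofasciatus hybrids.

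Xanthophore-enriched libraries had paternal values of 4, 84 and 195 in aesculapii, 772, 307 and 180 in albolineatus, 552, 88 and 21 in kyathit and 689, 117 and 30 in nigrofasciatus hybrids. Their D. rerio values were 4, 6 and 58, then 24, 31 and 70, then 43, 32 and 1, and last 13, 43 and 5. The spread within a group was here as large as the differences between groups.

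Unenriched skin had paternal values of 50, 71 and 59 in aesculapii, 164, 141 and 95 in albolineatus, 45, 84 and 435 in kyathit and 597, 102 and 119 in nigrofasciatus hybrids. D. rerio values were 11, 32 and 37, then 9, 22 and 2, then 11, 7 and 46, and last 5, 4 and 9. In 47 of the 48 libraries the paternal value was above the D. rerio value. The exception, the xanthophore-enriched library aesculapii 3, had 4 on each.

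**Figure D1:**
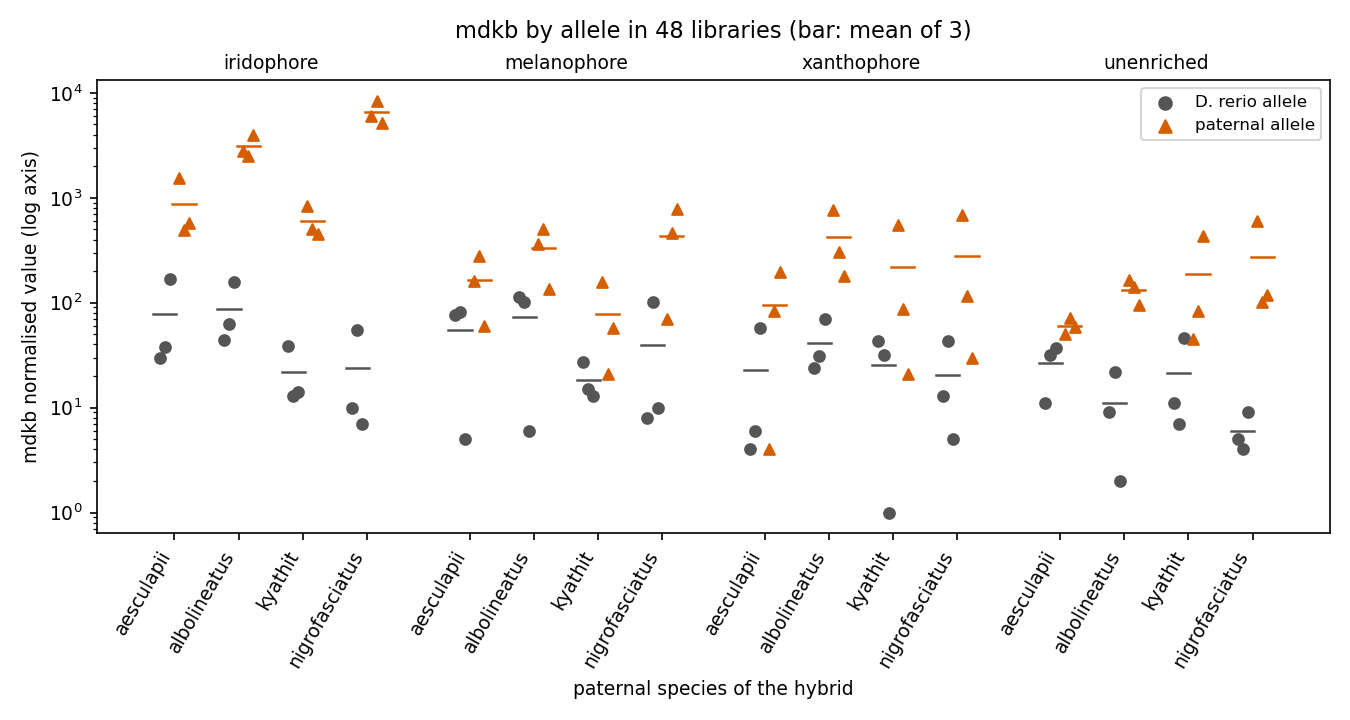
mdkb by allele in each of the 48 libraries. The vertical axis is the deposited normalised value on a log scale, circles are the D. rerio allele, triangles the paternal allele, and bars the mean of 3 libraries. Paternal values in iridophore-enriched libraries run from 448 to 8455, while D. rerio values stay between 1 and 168 in all kinds of library.

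Summed over both alleles, mdkb was far higher in iridophores than in whole skin. The sum was 2826 ± 2619 in sorted iridophores, 300.2 ± 253 in sorted melanophores, 281 ± 274 in sorted xanthophores and 180 ± 174 in whole skin (mean ± SD, n = 12 each). The medians were 2062.5, 211, 205 and 104.5. Of the 12 iridophore libraries, 10 were above every other library of their hybrid. The ranges of the kinds overlapped: the lowest iridophore value was 462 and the highest unenriched value 602.

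The fitted difference between iridophore-enriched and unenriched libraries was 3.61 ± 0.28 (SE) on the log2(value + 20) scale, a 12.2-fold rise (95% interval 3.06 to 4.17, limma adjusted p = 5.28e-15). On this scale the change of a low gene is understated. Of all 7889 genes tested, 19.9% were higher in iridophores at an adjusted p under 0.05. Without the unenriched libraries kyathit 5 and nigrofasciatus 3 the difference was 3.87 (adjusted p = 1.58e-17). These libraries held the highest mdkb sums of whole skin, 481 and 602, so leaving them out raises differences from whole skin by itself. In bulk RNA, a sort that holds more cells of a type and cells that hold more of the transcript cannot be told apart.

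Every hybrid showed the rise. It was 5.16 ± 0.62 in nigrofasciatus (limma adjusted p = 4.19e-08, where 6.73% of genes were called higher) and 4.26 ± 0.42 in albolineatus hybrids (adjusted p = 1.89e-11, 18.7% called higher). In aesculapii hybrids the log2 difference was 2.88 ± 0.67 (8.96% of genes called higher). The filter on low values used the mean over all hybrids, and unenriched aesculapii libraries held only 3.02 to 6.60 molecules of mdkb. The aesculapii estimate is therefore a description, with no test. The kyathit hybrids had the smallest estimate, 2.15 ± 0.46 (limma adjusted p = 0.000446, 6.40% called higher). Unenriched kyathit libraries held only 3.96 to 6.97 molecules of mdkb, so this test also rests on few molecules. Without the unenriched libraries kyathit 5 and nigrofasciatus 3 the rise was 5.59 in nigrofasciatus (limma adjusted p = 3.3e-10) and 2.74 in kyathit hybrids (adjusted p = 6.77e-07).

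The kyathit call was the least stable. Its limma adjusted p was 0.264 without replicate 3, 0.202 without replicate 4 and 0.274 with no precision weights. A test of whether the rise differed among the hybrids gave F = 4.87 and a limma adjusted p of 0.121, against 1.38% of genes called. That test passed without replicate 3 (adjusted p = 0.0122) and with a pseudocount of 100 (adjusted p = 0.0131), and gave 0.998 without replicate 5. Without the same 2 libraries of whole skin it gave F = 5.14 and an adjusted p of 0.13.

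The level was also higher in iridophores than in melanophores. The log2 difference was 2.79 ± 0.39 from melanophore-enriched libraries (6.91-fold, limma adjusted p = 2.04e-07, 17.3% of genes called higher). By hybrid, the difference from melanophore-enriched libraries passed in albolineatus (2.92 ± 0.65, adjusted p = 0.00161) and nigrofasciatus (4.07 ± 0.68, adjusted p = 8.95e-05). It did not pass in aesculapii (1.97 ± 0.90, adjusted p = 0.165) or kyathit hybrids (2.20 ± 0.89, adjusted p = 0.0787). In the same order of hybrids 5.44%, 5.55%, 6.10% and 8.62% of all genes were called higher. Whether the hybrids differed in it gave an adjusted p of 0.802 (0.0658% of genes called). Melanophore-enriched libraries held only 0.97 to 7.05 molecules of mdkb in aesculapii and 0.36 to 7.18 in kyathit hybrids. The comparisons within these hybrids therefore cannot decide.

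Xanthophore-enriched libraries held a mean of 3.27 molecules of mdkb, with 5 or more in 2 of 12, so the gene passed the filter on low values for that comparison through the iridophore libraries. The estimate of 3.48 ± 0.47 between iridophores and xanthophores is therefore a description, with no test. Over all genes 17.0% were called higher in iridophores there. Melanophore-enriched libraries had a mean of 5.18 molecules and whole skin one of 8.22.

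Neither of the other sorted kinds was shown to differ from skin. The melanophore difference was 0.82 ± 0.41 (95% interval 0.01 to 1.64, limma adjusted p = 0.131, 25.6% of genes called in either direction). Without the unenriched libraries kyathit 5 and nigrofasciatus 3 it was 1.08, with an adjusted p of 0.0242, so that call rests on those libraries. The xanthophore difference was 0.13 ± 0.47 (95% interval -0.83 to 1.08, limma adjusted p = 0.884, 13.5% of genes called), and 0.38 without the same 2 libraries (adjusted p = 0.568). Xanthophore-enriched libraries held a mean of 3.27 molecules, so mdkb passed the filter for this comparison through whole skin, and the test cannot decide. Melanophore- and xanthophore-enriched libraries were not compared with each other, because their mean was worth under 5 molecules.

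Ordered by mean sum, the iridophore groups took the first 4 places of 16. They were nigrofasciatus at 6555 ± 1737, albolineatus at 3175 ± 864, aesculapii at 951 ± 553 and kyathit at 621 ± 227 (SD, n = 3 each). Single values ran from 5189 to 8510 in nigrofasciatus, from 2547 to 4160 in albolineatus and from 532 to 1578 in aesculapii iridophores. From aesculapii iridophores down, each group overlapped with the next in the order. The melanophore-enriched nigrofasciatus libraries came next at 476 ± 362 and unenriched aesculapii skin last at 86.7 ± 22.5.

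Among the hybrids, the level differed in iridophore-enriched libraries (limma F = 15.9, adjusted p = 4e-05, 14.2% of genes called). It gave an adjusted p of 0.0944 without replicate 4. The hybrids also differed in markers there. Iridophore marker sums of 136398 to 221482 in the kyathit libraries lay below those of all other hybrids, 269066 to 686200. The 8 keratinocyte markers summed to 82158 to 133399 in kyathit iridophore libraries and reached at most 100536 in another hybrid. Dermal fibroblast and scale markers were highest in aesculapii 4 and 5, at 101427 and 68209. Their part in the level of mdkb was not tested. In melanophore-enriched libraries the same test gave F = 1.25 and an adjusted p of 0.713 (0.179% called), and in unenriched libraries F = 0.60 and 0.808 (7.30% called), or 0.95 and 0.681 without kyathit 5 and nigrofasciatus 3. Xanthophore-enriched libraries held too few molecules for it.

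The iridophore allele ratio of mdkb was the most paternal of all genes that could be set beside it. Ratios are log2 of paternal over D. rerio, with 0.5 molecules added to each allele and the library's median over genes taken as 0. The means were 7.06 ± 0.46 in nigrofasciatus, 4.90 ± 0.50 in albolineatus, 4.30 ± 0.17 in kyathit and 2.97 ± 1.29 in aesculapii hybrids (SD, n = 3 each). As a description, mdkb ranked 1 of 2552 genes measured in iridophores of all hybrids, both by the lowest of its 4 hybrid means and by their mean of 4.81. Next by the lowest mean came srsf3a at 2.17, which encodes a splicing factor, cftr at 2.07, a chloride channel, and snap23.1 at 1.81, a membrane fusion protein.

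The paternal allele made up 77.4% to 99.9% of mdkb in single iridophore libraries. The library aesculapii 5 was the lowest at 77.4%, and all others were at 92.9% or above. The D. rerio allele was worth between 0.13 and 4.25 molecules in these libraries, and fewer than 1 in 5 of the 12. The 0.5 molecules added to each allele therefore set much of the size of such ratios, and 7.06 is not a precise measure of how far the alleles differ.

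**Figure D2:**
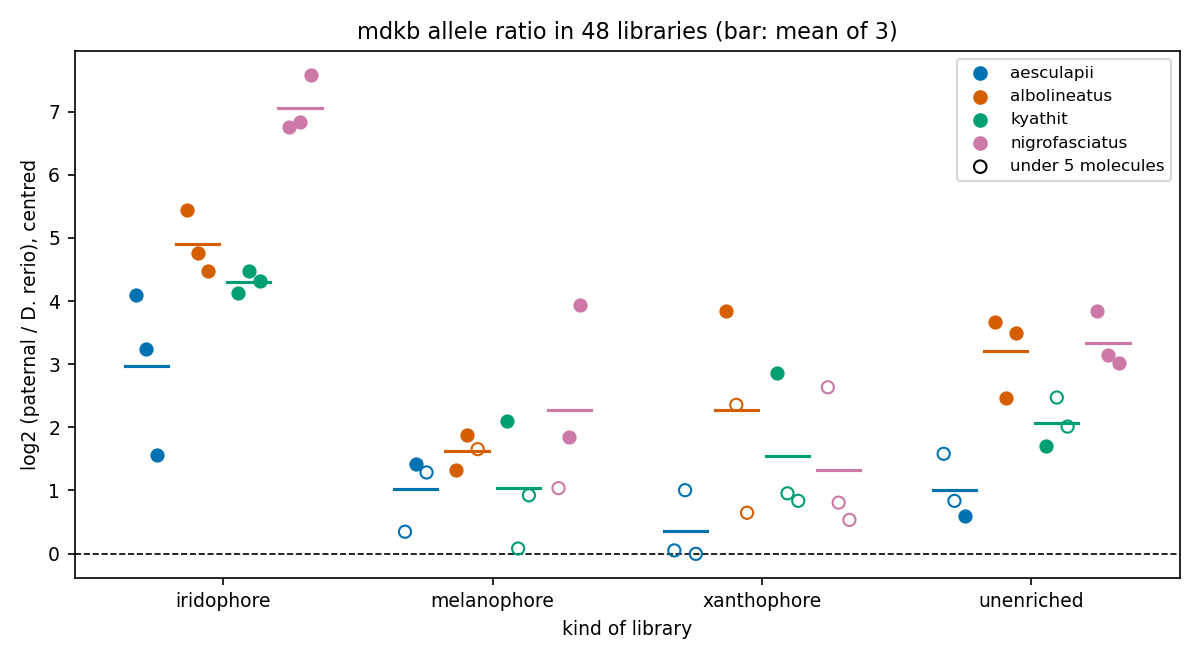
mdkb allele ratio in each of the 48 libraries by kind of library, as centred log2 of paternal over D. rerio, where 0 is the median gene of a library. Bars are means of 3 libraries, and open circles are libraries with under 5 mdkb molecules. Iridophore ratios run from 1.56 to 7.58, and ratios of the other kinds from -0.00424 to 3.94.

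The D. rerio allele had a mean of 53.1 ± 54.1 in iridophore-enriched libraries and 16.3 ± 14.5 in unenriched skin, with 46.5 ± 44.0 in melanophore-enriched and 27.5 ± 22.8 in xanthophore-enriched libraries (SD, n = 12 each). Its range of 7 to 168 in iridophores overlapped that of each other kind. The paternal allele had means of 2772 ± 2622 in sorted iridophores, 254 ± 231 in melanophores, 253 ± 270 in xanthophores and 164 ± 172 in whole skin.

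Outside iridophores, mdkb was also mostly paternal. These ratios come from the same hybrids and variants as the iridophore ratio for which mdkb was chosen. Their p-values are therefore not independent support for a paternal bias. In unenriched skin the centred log2 ratio was above 0 in 12 of 12 libraries, with a mean of 2.40 ± 1.08 (SD, n = 12, exact two-sided sign-flip permutation p = 0.000488, adjusted over the 3 kinds 0.000732). It was 1.49 ± 0.98 and above 0 in 12 of 12 melanophore-enriched libraries (exact permutation p = 0.000488, adjusted 0.000732). In xanthophore-enriched libraries it was 1.38 ± 1.23 and above 0 in 11 of 12 (exact permutation p = 0.000977, adjusted 0.000977). The smallest p that these permutations can give is 0.000488. Without kyathit 5 and nigrofasciatus 3 the mean in whole skin was 2.30 (adjusted permutation p = 0.00195).

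The test takes the 12 libraries of a kind as independent, although they are 3 libraries from each of 4 hybrids. Hybrid means in whole skin ran from 1.004 in aesculapii to 3.34 in nigrofasciatus. With the 4 hybrids as units, no p below 0.125 is possible. Whether libraries with the same number share a batch is not stated in the labels. The means of the libraries numbered 3, 4 and 5 were 2.70, 2.23 and 2.28 in whole skin, 1.2, 1.3 and 1.95 in melanophores and 2.35, 1.28 and 0.50 in xanthophores. All lay above 0, and a test over the 3 numbers cannot give a p below 0.25. Libraries under 3 molecules were kept in the test: 6 of the melanophore and 8 of the xanthophore libraries, and none of whole skin. Without them the mean was 2.08 over 6 melanophore libraries (exact permutation p = 0.0312, adjusted 0.0469) and 2.92 over 4 xanthophore libraries (exact permutation p = 0.125, the smallest possible there). Over the 4 hybrids, 16.8% of genes with enough molecules for limma were called paternal in whole skin, 10.5% in melanophores and 8.41% in xanthophores. The gene mdkb itself held too few molecules for that test.

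Enough molecules for a limma test within a hybrid were held by 4 of the 12 groups outside iridophores, and 3 passed. Unenriched albolineatus skin had a ratio of 3.15 ± 0.33 (SE, limma adjusted p = 6.4e-07, 15.6% of genes called paternal). In unenriched nigrofasciatus skin it was 3.31 ± 0.47 (adjusted p = 0.000166, 9.03% called paternal), and 3.08 with an adjusted p of 0.00122 without the libraries kyathit 5 and nigrofasciatus 3. Melanophore-enriched nigrofasciatus libraries had 2.90 ± 0.61 (limma adjusted p = 0.00639, 6.57% called paternal). That fit left out the library nigrofasciatus 3 of this kind, which held 0.93 molecules and had a ratio of 1.04. It rests on nigrofasciatus 4 and 5, with ratios of 1.84 and 3.94, and the mean over all 3 libraries was 2.27. With the replicate number as a block the melanophore-enriched nigrofasciatus ratio was 3.12 with a limma adjusted p of 0.0608.

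Melanophore-enriched albolineatus libraries had a ratio of 1.61 ± 0.66 (limma adjusted p = 0.129, 4.54% of genes called paternal). The fit left out the library albolineatus 5 of this kind, which held 1.39 molecules. The call depended on the fit: with the replicate block the ratio was 2.23 with an adjusted p of 0.0447, and with no weights 1.60 with 0.0381. The melanophore ratio was not shown to differ from that of skin. The difference was -1.54 ± 0.74 in albolineatus hybrids (95% interval -3.10 to 0.02, limma adjusted p = 0.457, 0.0328% of genes called) and -0.41 ± 0.77 in nigrofasciatus hybrids (95% interval -2.10 to 1.27, adjusted p = 0.959, 0.0348% called). The albolineatus difference also leaves out the melanophore-enriched library albolineatus 5. That of the nigrofasciatus hybrids leaves out nigrofasciatus 3 of this kind, which held 0.93 molecules.

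In the remaining groups the depth did not allow a test. Mean ratios in unenriched skin were 1.004 ± 0.51 in aesculapii and 2.06 ± 0.39 in kyathit hybrids, the latter 2.09 without kyathit 5. Melanophore-enriched libraries of these hybrids had 1.016 ± 0.58 and 1.03 ± 1.01. Xanthophore-enriched means were 0.35 ± 0.57 in aesculapii, 2.28 ± 1.60 in albolineatus, 1.55 ± 1.14 in kyathit and 1.33 ± 1.14 in nigrofasciatus hybrids (SD, n = 3 each). Of the 36 libraries outside iridophores, 20 held fewer than 5 mdkb molecules, and the 0.5 molecules added to each allele draw such ratios towards 0.

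In whole skin the highest values of mdkb and of iridophore markers stood in the same 2 libraries. The unenriched libraries nigrofasciatus 3 and kyathit 5 had the highest mdkb sums of that kind, 602 and 481, and the other 10 lay between 56 and 173. These were the shallowest libraries of whole skin, with an estimated 108806 and 62874 molecules against a median of 417942. Their mdkb sums were worth only 8.80 and 3.96 molecules. Both libraries also had the highest values of pnp4a, the purine phosphorylase gene whose promoter drives the iridophore reporter, at 2808 and 3694 against 1159 or less. Among the other 10 the orders differed: aesculapii 4 had the highest pnp4a sum of these, 1159, and an mdkb sum of 103, while albolineatus 3 had the highest mdkb sum, 173, and a pnp4a sum of 300. Values of tyrp1b, a melanin synthesis gene, were also the highest of the kind in nigrofasciatus 3 and kyathit 5, at 5218 and 7217. How much of the mdkb in whole skin, and of its paternal ratio, came from iridophores was not tested.

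The same markers were present in the other sorted kinds. The melanophore-enriched libraries had pnp4a sums of 824 to 6934 and the xanthophore-enriched ones of 362 to 3966, against 9694 to 27510 in iridophores. In melanophore-enriched libraries the highest mdkb sum, 784 in nigrofasciatus 5, stood beside a pnp4a sum of 1600, and the highest pnp4a sum, 6934 in aesculapii 3, stood beside an mdkb sum of 238. In xanthophore-enriched libraries both were highest in albolineatus 3, at 796 and 3966. The part of iridophore RNA in these values was not tested.

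pnp4a itself had no shared paternal ratio. Its centred log2 ratio in iridophores was -0.06 ± 0.86 (SD, n = 12), above 0 in 6 of 12 libraries, with a paternal share of 49.9% ± 14.7.

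The paralog mdka had another distribution over the kinds of library. It was highest in melanophore-enriched libraries at 3896 ± 2111, followed by 1657 ± 1073 in xanthophore-enriched, 1315 ± 438 in unenriched and 716 ± 502 in iridophore-enriched libraries (SD, n = 12 each). Against skin it rose in melanophore-enriched libraries by 1.39 ± 0.23 on the log2 scale (limma adjusted p = 1.61e-05). These libraries also had more macrophage and leukocyte marker value than skin (medians 71641 and 34004), whose part in mdka was not tested. The mdka difference in iridophores was -1.095 ± 0.27, a fall to 0.468 of the skin level (adjusted p = 0.000865), in the kind of library where mdkb rose. By hybrid it passed in kyathit (-1.36 ± 0.44, adjusted p = 0.0232). It did not pass in albolineatus (-0.45 ± 0.43, adjusted p = 0.4) or nigrofasciatus hybrids (-0.33 ± 0.57, adjusted p = 0.767). In aesculapii hybrids it was -2.24 ± 0.70, a description, as iridophore libraries there held only 2.03 to 5.92 molecules of mdka. Whether the hybrids differed in it gave F = 2.10 and an adjusted p of 0.443. In xanthophore-enriched libraries the mdka difference was 0.14 ± 0.30 (adjusted p = 0.79). Between iridophores and melanophores mdka differed by -2.49 ± 0.28 (adjusted p = 1.87e-09).

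Both alleles of mdka were well represented. Its paternal share was 56.9% ± 12.6 in whole skin, 65.5% ± 8.16 in melanophores, 61.9% ± 13.2 in xanthophores and 64.3% ± 18.8 in iridophores (SD, n = 12). Over the 4 hybrids its centred log2 ratio was 0.84 ± 0.14 (SE) in melanophore-enriched libraries (limma adjusted p = 0.000141) and 0.54 ± 0.12 in unenriched skin (adjusted p = 0.00165). The xanthophore-enriched value was 0.55 ± 0.19 (adjusted p = 0.034). The mean ratios of mdkb in these kinds were 1.49, 2.40 and 1.38 in that order, and the difference between the paralogs was not tested. The mdka ratio in skin differed among hybrids (limma F = 5.45, adjusted p = 0.0275). There it passed in albolineatus (0.92, adjusted p = 4e-04), but not in kyathit (1.05, 0.0519), nigrofasciatus (0.27, 0.435) or aesculapii hybrids (-0.09, 0.84). In iridophores the mdka ratio passed in kyathit (1.82, adjusted p = 8.53e-05) and nigrofasciatus (0.90, 0.0366), but not in albolineatus hybrids (0.92, 0.0867).

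The pleiotrophin gene ptn was close to absent, with means of 5.67 in iridophores, 27.9 in melanophores, 25.6 in xanthophores and 23.8 in whole skin. It held too few molecules for a test of its level. A ratio could be fitted in unenriched albolineatus skin, where paternal values of 86, 55 and 31 stood beside D. rerio values of 5, 2 and 4 in replicates 3, 4 and 5. The centred log2 ratio of ptn there was 3.23 ± 0.50 (SE, limma adjusted p = 0.000242, where 15.6% of genes were called paternal), from the 2 libraries with at least 3 molecules.

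**Figure D3:**
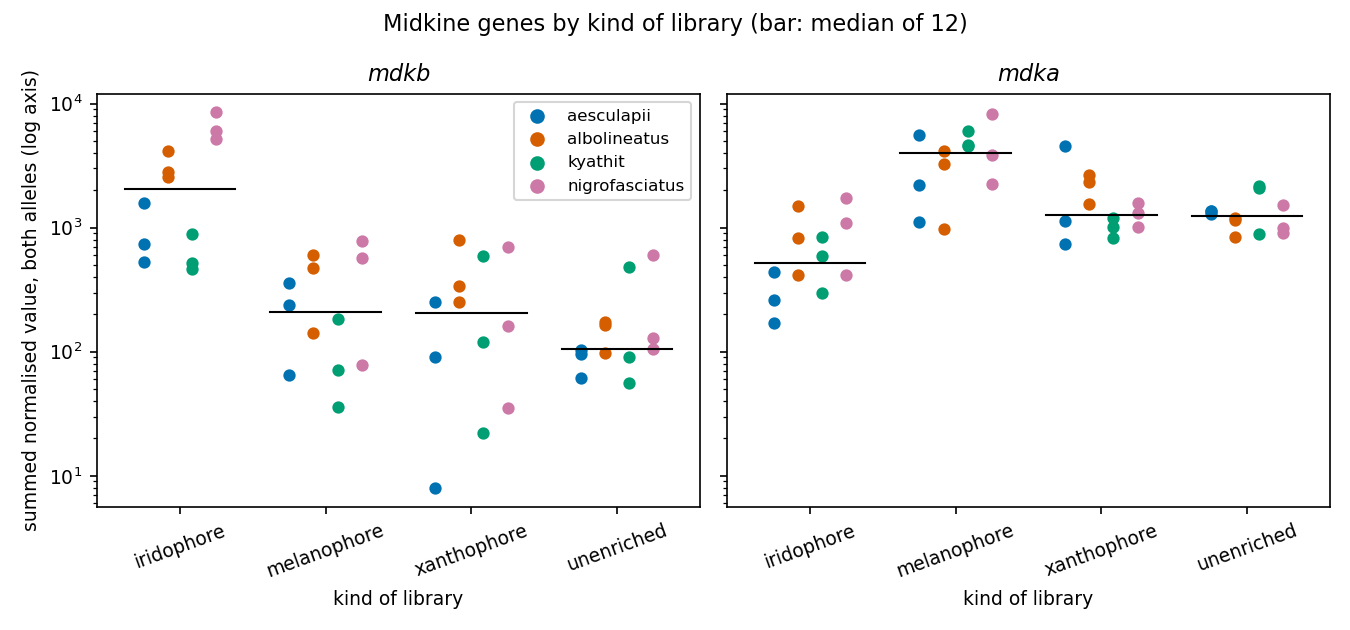
Summed values of mdkb and mdka in each library, both alleles together, on a log axis shared by the panels. Points are libraries coloured by the father of the hybrid, and bars are medians of 12. mdkb is highest in iridophore-enriched libraries (median 2062.5) and mdka in melanophore-enriched ones (median 3989.5).

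Receptors and binding partners known for midkines in mammals were taken with the ligands as a list of 29 genes, of which 27 were in the tables and 15 could be tested between iridophores and skin. Of these, 5 rose, 7 fell and 3 did not pass, and the median log2 difference was -0.30 against -0.18 over all genes tested. The fallen lrp1aa, itgb1a and cspg5a passed the filter on low values through whole skin, so their falls are descriptions. Over all genes 49.2% were called in either direction in this comparison, and 19.9% were called higher. Without mdkb, the chosen gene, 4 of 14 members rose.

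The members that rose beside mdkb were ltk, sdc2, itga4 and itgb1b. The receptor tyrosine kinase gene ltk, needed for iridophores in zebrafish and also on the marker list, rose by 0.88 ± 0.25 (limma adjusted p = 0.00286), from 204 ± 120 in skin to 462 ± 379. The integrin genes itgb1b and itga4, whose products form surface receptors for matrix, rose by 1.72 ± 0.21 (adjusted p = 2.67e-09) and 1.31 ± 0.29 (adjusted p = 0.000176). The heparan sulphate carrier sdc2, a syndecan, rose by 0.44 ± 0.18 (adjusted p = 0.0338).

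The members that fell were mdka, lrp1aa, lrp1ab, nrp1a, sdc4, itgb1a and cspg5a. Both genes for the endocytic receptor LRP1 were lower in iridophores, lrp1aa by -2.48 ± 0.32 and lrp1ab by -2.04 ± 0.35 (limma adjusted p = 3.19e-06 for lrp1ab). The difference was -1.95 ± 0.27 for cspg5a, which encodes a chondroitin sulphate proteoglycan. It was -1.78 ± 0.38 for itgb1a, the other integrin beta 1 gene of this list among those tested. The iridophore means of lrp1aa, cspg5a and itgb1a were only 65.9, 32.7 and 60.4, where a molecule was worth 17.9 to 129. These genes passed the filter through whole skin, so their differences are descriptions, with no test. The co-receptor gene nrp1a had -1.38 ± 0.32 (adjusted p = 0.000355), and the syndecan gene sdc4 -0.43 ± 0.16 (adjusted p = 0.022).

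The 3 members that did not pass were itga6b (-0.11 ± 0.30), ncl (-0.26 ± 0.17) and notch2 (-0.30 ± 0.30). The phosphatase genes ptprz1a and ptprz1b and the kinase gene alk could not be tested, with iridophore means of 30.2, 16.4 and 82.2.

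In melanophore-enriched libraries 16 members were tested, of which 2 rose (mdka and itga4) and 4 fell, with a median of -0.16 against -0.21 over all genes, of which 25.6% were called. In xanthophore-enriched libraries none of 16 rose and 2 fell, with a median of -0.16 against -0.26 over all genes, of which 13.5% were called. The fallen 2 were ltk, by -1.72 ± 0.42, and cspg5a, by -1.05 ± 0.35. Their xanthophore-enriched means were 47.8 and 184, where a molecule was worth 43.5 to 236. Both passed the filter on low values through whole skin, so these falls are descriptions, with no test. The same holds in melanophore-enriched libraries for the falls of ltk, cspg5a and itgb1b.1. Their means there were 53.25, 100.2 and 71.7, where a molecule was worth 25.6 to 158. Without the unenriched libraries kyathit 5 and nigrofasciatus 3 the numbers that rose and fell were 5 and 7 in iridophores, 3 and 3 in melanophores and 0 and 2 in xanthophores.

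**Figure D4:**
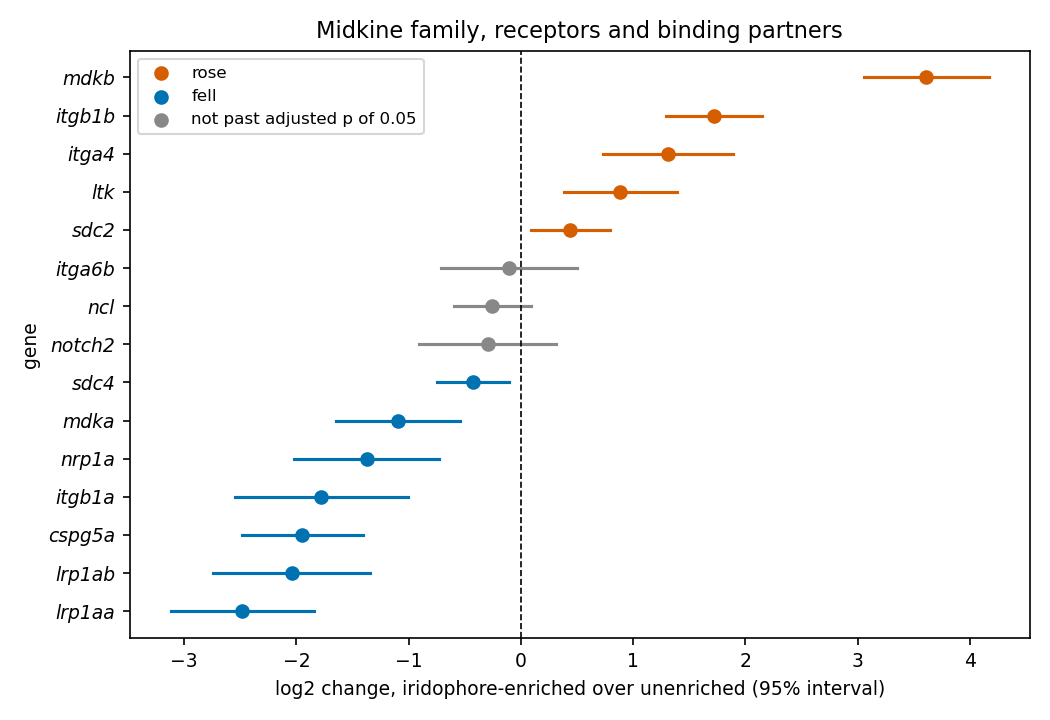
Log2 difference of the summed level between iridophore-enriched and unenriched libraries for the 15 tested genes of the midkine list. Points are limma estimates, lines their 95% intervals, and colour marks the call at an adjusted p of 0.05. mdkb has the largest rise at 3.61 and lrp1aa the largest fall at -2.48. The falls of lrp1aa, itgb1a and cspg5a are descriptions, as these genes passed the filter through whole skin.

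Other secreted signals of pigment cells and skin were counted for comparison. Of 21 genes listed, 20 were in the tables and 7 were tested between iridophores and skin. There 3 rose and 4 fell, with a median of -1.20 against -0.18 over all genes, of which 49.2% were called and 19.9% called higher. The largest rise was that of csf1a, a ligand needed by xanthophores, at 3.46 ± 0.28 (limma adjusted p = 6.83e-14), which is close to the 3.61 of mdkb. The largest fall was that of asip1, an antagonist of melanocortin signalling, at -2.63 ± 0.34. The fallen genes asip1 and igf2a had iridophore means of only 28.3 and 57.7. They passed the filter on low values through whole skin, so their falls are descriptions, with no test.

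The genes whose summed level was most like that of mdkb over the 16 group means were alx4b (Pearson r = 0.93), slc52a3 (0.92), zfhx4 (0.92), clec3ba (0.91) and gfra2a (0.91), among 7888 genes compared. These are descriptions over 16 means that share the same libraries. All 5 were higher in iridophores than in skin, by 3.33 ± 0.26, 3.50 ± 0.27, 3.15 ± 0.25, 2.97 ± 0.18 and 3.04 ± 0.27 in that order. The homeobox gene alx4b is also on the iridophore marker list, and slc52a3 encodes a riboflavin transporter.

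In allele ratio, the most similar of 1699 genes was si:dkey-21a6.5, with a root mean square difference from mdkb of 1.06 on the log2 scale over 8 groups. In iridophores its ratios were 5.15 in nigrofasciatus, 4.596 in albolineatus, 4.04 in kyathit and 1.01 in aesculapii hybrids. Its ratios in unenriched skin were 3.70 in nigrofasciatus and 3.11 in albolineatus hybrids, and in melanophore-enriched libraries 3.31 and 2.12. The next genes, snap23.1, eif4a1a, pfn2 and scinla, differed from mdkb by 2.21 to 2.32.

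**Figure D5:**
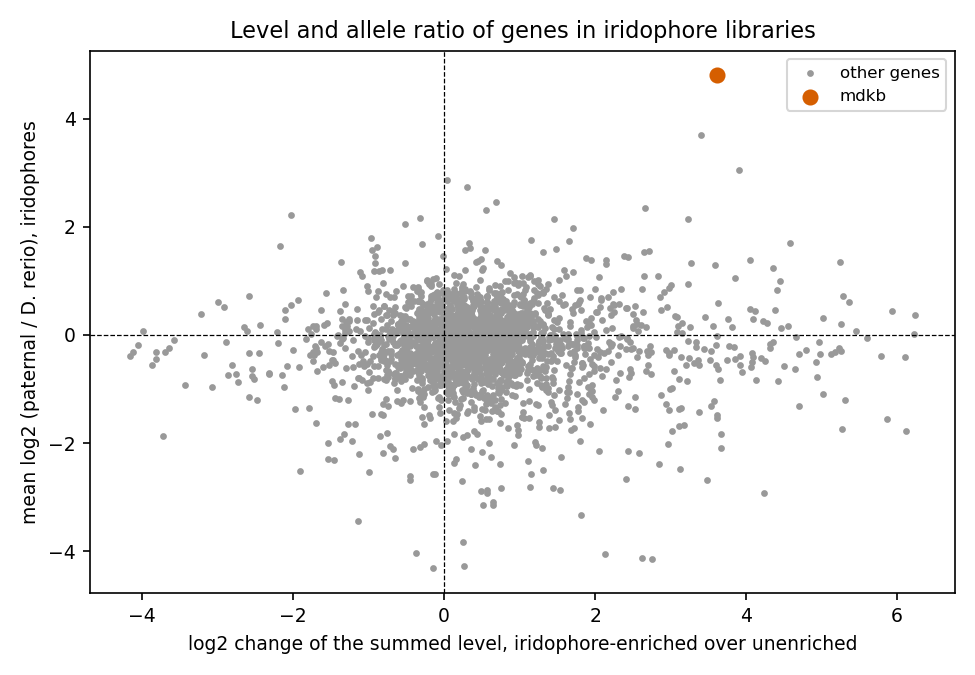
Genes measured on both alleles in iridophores of all 4 hybrids, with the log2 difference of the summed level from skin on the horizontal axis and the mean centred log2 ratio of paternal over D. rerio on the vertical axis. Each grey point is a gene, and the orange point is mdkb, at 3.61 and 4.81. It lies above all other points, of which the nearest in ratio is si:dkey-21a6.5 at 3.40 and 3.70.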

How the data were processed

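Both deposited tables hold reads per gene and allele that the authors scaled and rounded, a unit treated here as a score, so no count model was used. The scaling shows in the values: median-ratio size factors over the 96 allele columns, from 3132 genes above 0 in each, lay between 0.997 and 1.003. The submitters' processing notes name GRCz11, featureCounts and DESeq2 1.44.0. No aligner, filter or set of allele variants is given in the sources used here. The design text calls the sorted samples biological, but not whether they came from separate fish, so p-values measure only the spread between these samples.

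A molecule was the value at which counting explains the scatter of allele ratios between replicates (genes with sums of 300 to 3000), and was worth 8.03 to 236. It absorbs real variation between replicates, and no counting interval is given. Levels were fitted as log2(sum + 20) over 48 libraries and 16 group means, and tested where the mean over the compared kinds was worth 5 molecules. Ratios had 0.5 molecules added to each allele, were centred on the library median (-0.05 to 0.83 removed) and were left out of the limma fits under 3 molecules, while group means and the sign-flip test use all libraries. They were tested where at least 5 molecules were present in all but 1 of a group's 3 libraries. limma 3.58.1 (R 4.3.3) used precision weights per library (lowess span 0.3), trend and robust settings, with Benjamini-Hochberg adjustment per comparison and a threshold of 0.05. The fits were tested on simulated data.

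Over the 4 hybrids mdkb held too few molecules for limma outside iridophores, so the exact sign-flip permutation test over the 12 libraries of a kind is given. The labels give each library a replicate number and name no batch, so whether the numbers mark a shared batch is not known. Libraries of a hybrid with the same number had a median correlation of deviations of 0.06, and those with other numbers -0.03. The gene, the lists and the rules for named genes (list members that passed, the 5 nearest in level and in ratio) were chosen with earlier results of these data known. Alternatives changed the pseudocounts, scaling, filters, weights, block and libraries.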

Additional observations from a re-analysis of the deposited data

How the results depend on the processing

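Level differences of iridophores from skin and melanophores kept their call under every alternative run, at 3.03 to 3.87 and 2.39 to 3.27. The difference from xanthophores, a description, ran from 2.80 to 3.88. The level among hybrids in iridophores gave F from 5.02 to 23.4 when a replicate was left out, and lost its call without replicate 4. The melanophore difference from skin became 1.08 and passed without the unenriched libraries kyathit 5 and nigrofasciatus 3. The xanthophore difference from skin, which never passed, was -0.0512 with a pseudocount of 1, and 0.0641 in aesculapii hybrids with a pseudocount of 100. Leaving out a replicate moved uncalled differences from skin across 0: melanophore from -1.72 to 0.22 in kyathit and from -0.22 to 2.33 in nigrofasciatus hybrids, and xanthophore from -0.28 to 1.68 and from -0.61 to 0.36. Without kyathit 5 and nigrofasciatus 3 the kyathit differences were 0.54 and 0.36. With 20 added to each allele, the ratio difference between melanophores and skin in nigrofasciatus hybrids was 0.45. The replicate block moved the melanophore ratio to 2.23 (passing) in albolineatus and 3.12 (not passing) in nigrofasciatus hybrids, and with no weights the first was 1.60 and passed. The block changed no other call reported here. The kyathit level difference between iridophores and melanophores passed under 3 of 12 alternatives (adjusted p 0.016 to 0.297). Groups outside iridophores with a paternal call numbered 5, against 3, with no minimum of molecules or with molecules taken from the median absolute deviation, an alternative chosen after seeing the data. With no filter, genes called against skin numbered 7111 in iridophores (3883 as reported), 3427 in melanophores (1830) and 3102 in xanthophores (944). Leaving out a replicate gave 773 to 1179 for melanophores and 122 to 513 for xanthophores. Over libraries with at least 3 molecules, an alternative chosen after seeing the data, the sign-flip ratio in xanthophores was 2.92 and did not pass, because 4 libraries cannot reach the threshold. Under the other alternatives the sign-flip ratios kept their side at 1.25 to 1.74, 0.89 to 1.81 and 2.004 to 2.53 in melanophores, xanthophores and skin. The cause of these shifts was not tested. Depth limits the ratios: 32 of 48 libraries held under 1 D. rerio molecule of mdkb.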
